A study of Mus musculus with 88 samples.

Results

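Cluster 4 was a group of 324 cells out of the 4949 single cells in the series (6.547%), chosen as all cells that the deposited cell table assigned to cluster 4 at a clustering resolution of 2.5, out of 22 clusters. Mouse embryonic stem cells (ESCs) were aggregated into embryoid bodies (EBs), differentiated without LIF, and profiled by SORT-seq, a plate-based single-cell method that sorts single live cells into wells and counts unique molecular identifiers (UMIs). The 4 genotypes were wild type (WT, the E14 line, 129/Ola) and cells null for Mtf2, for Jarid2 or for Eed, each with 1 library at days 0, 4, 7 and 10. Mtf2 and Jarid2 define alternative forms of Polycomb repressive complex 2 (PRC2), and Eed is one of its core subunits. Bulk RNA-seq of EBs and of ESCs directed towards mesoderm or endoderm was used beside the single cells. The labels give the strain E14 for every genotype, while the methods name another wild-type line as the background match of each null line (Pcl1-3 WT for Mtf2, JM8 for Jarid2, J1 for Eed); of the RNA data used here, these lines appear in the bulk EBs only. Genotype and line therefore cannot be told apart in the single-cell and directed experiments. The WT libraries stood apart from the null libraries in cluster 4 at Hprt, at 0 and 5.774 UMI CPM (UMIs scaled to a total of 1000000) in the WT day 7 and day 10 libraries against 131.1 to 249.4 CPM in the 3 null libraries, and at Rplp1, at 271.6 and 252.1 against 2466 to 3340 CPM.

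Lateral plate and cardiac mesoderm arises from the primitive streak under BMP signalling and gives rise to heart muscle, the smooth muscle and connective tissue cells of the heart wall and body wall, and the epicardium that covers the heart. Its cells express the transcription factors Hand1, Gata6, Tbx20 and Isl1 before they build sarcomeres, the contractile units made of titin, actins, myosins and troponins. PRC2 places the repressive histone mark H3K27me3 on the promoters of such developmental regulators in ESCs.

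Of the cells of cluster 4, 122 were WT, 159 were Mtf2 null, 40 were Jarid2 null and 3 were null for Eed, with 118 from day 7, 206 from day 10 and none from day 0 or day 4. In WT EBs the share went from 32 of 316 cells at day 7 (10.13%, 95% exact Clopper-Pearson interval 7.03 to 13.99) to 90 of 214 at day 10 (42.06%, 35.36 to 48.98). In Mtf2 null EBs the shares were 22.97% at day 7 (79 of 344, 18.62 to 27.78) and 24.92% at day 10 (80 of 321, 20.29 to 30.03). Thus the Mtf2 null share was above the WT share at day 7 and below it at day 10, with intervals that did not overlap at either day. Jarid2 null libraries gave 2.318% (7 of 302, 0.9369 to 4.717) and 12.5% (33 of 264, 8.763 to 17.1). Eed null libraries gave 0 of 319 cells at day 7, where 3 cells would make 0.9404% and the exact interval reaches 1.15%, and 3 of 202 cells at day 10 (1.485%). Each share rests on 1 library, and the intervals cover counting error only. The cells had a median of 6138 UMIs (range 1369 to 36526) and 2718 detected genes, against a median of 6715 UMIs in all other cells, and 6 cells held more than 3 times the median of their library. The libraries share one set of 384 well barcodes, and 80 of the 230 barcodes that hold a cluster 4 cell do so in more than 1 library.

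The 4 genes used to mark the cells went with the label. Summed over cluster 4, Hand1 reached 750.4 CPM (95% Poisson interval 714.5 to 787.6) against 38.84 in all other cells, a ratio of 19.32. Tbx20 reached 127.9 against 7.971 CPM (16.04 times), Isl1 110 against 11.3 CPM (9.739 times) and Gata6 252.6 against 27.27 CPM (9.263 times). Hand1, Tbx20 and Isl1 were highest in cluster 4 of all 22 clusters, whereas Gata6 was highest in cluster 13 (317.3 CPM), and Isl1 in cluster 13 (106.2 CPM) was within the interval of cluster 4 (96.53 to 124.8). These levels describe the cells that were clustered on such genes and are no test.

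The markers were present in every library with at least 10 cluster 4 cells. Hand1, a bHLH factor of lateral and extraembryonic mesoderm (chr11:57828705-57832818, GRCm38), had 663.5 CPM in WT day 7, 631.1 in Mtf2 null day 7, 894.9 in WT day 10, 868.4 in Mtf2 null day 10 and 647.1 in Jarid2 null day 10. All 5 values lay far above the other cells of the same libraries, which had 60 to 76 CPM. Tbx20, a T-box factor of the developing heart (chr9:24718138-24774303), had 106.9, 91.61, 161.7, 169.6 and 69.62 CPM in the same order, with Jarid2 null day 10 lowest. Isl1, a LIM homeodomain factor of second heart field progenitors (chr13:116298281-116309689), had 75.7, 89.91, 80.83, 151.2 and 159.7 CPM and was thus highest in the null libraries of day 10. Gata6, a zinc finger factor of cardiac mesoderm and of primitive endoderm, had 182.6, 195.1, 359.9, 269.2 and 204.8 CPM, with WT day 10 on top. Per cell the markers were sparse. A Hand1 UMI was found in 79.32% of cluster 4 cells, Gata6 in 59.88%, Tbx20 in 44.44% and Isl1 in 31.17%. With each cell thinned to 2500 UMIs (302 cells deep enough), the shares were 69.54%, 42.38%, 22.85% and 17.88%, against 6.955%, 5.439%, 1.564% and 2.359% of the other cells.

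**Figure D1:**
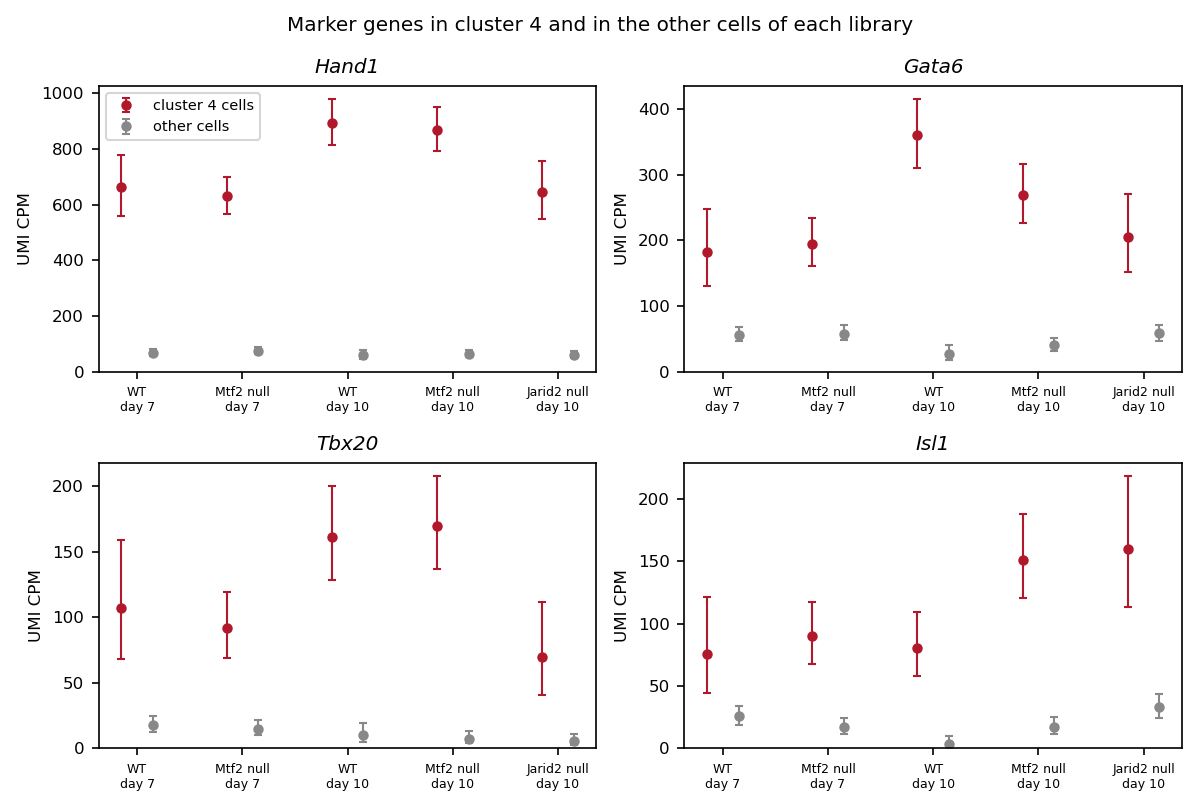
Summed UMI CPM (y axis) of the 4 marker genes in cluster 4 cells (red) and in the other cells of the same library (grey), for the 5 libraries with at least 10 cluster 4 cells (x axis); bars are 95% Poisson intervals and cover counting error only. In each library the red point lies above the grey one for all 4 genes, and Isl1 is highest in Mtf2 null and Jarid2 null day 10 (151.2 and 159.7 CPM).

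A cluster 4 gene was defined by a level of at least 50 CPM, at least 4 times that of all other cells, and at least 2 times that of the other cells within each of the 5 libraries. By the first 2 criteria 201 genes qualified, and 107 by all 3, of which 48 reached 8 times and 33 reached 10 times. Of the 107 genes, 38 belonged to one of the gene lists of cell types and pathways. Just inside the limit of 4 were Csrp1 (4.284), Unc5b (4.216) and Zfp703 (4.142), and just outside were Fos (3.992), Foxo4 (3.987) and Grb10 (3.961). The highest ratios belonged to Tdo2, a tryptophan-degrading enzyme (89.39 against 0.8246 CPM, 108.4 times), Plac1 (38.33), the BMP ligand Bmp5 (36.9), the pericyte gene Rgs5 (36.29), smooth muscle actin Acta2 (759.1 against 21.82 CPM, 34.78 times), the VEGF co-receptor Nrp1 (27.75) and the collagen gene Col1a1 (560.6 against 23.72 CPM, 23.63 times).

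Grouped by list, genes were counted if they had at least 20 CPM in cluster 4 or in the other cells. Genes nearly silent elsewhere thus enter only when high in cluster 4, and the counts describe the cells and are no test. Of 11 cardiac transcription factor genes 10 were at least 4 times higher than in the other cells, among them the 4 markers, with Tbx3 (1.471 times) as the exception. So were 17 of 21 genes of mesenchyme and its matrix and 9 of 12 of lateral plate mesoderm. Over all 8207 genes at this level, 322 were 4 times higher, and the median ratio was 1.026. Among the mesenchyme genes were Snai2, a factor of epithelial-to-mesenchymal transition (13.81 times), Col3a1 (13.3), periostin Postn (18.42) and the hyaluronan synthase Has2 (11.44). Contractile genes followed in 7 of 8 cases, the exception being the calcium pump gene Atp2a2 (0.8624 times), and smooth muscle genes in 3 of 5. Of the BMP and TGF-beta pathway genes 5 of 16 were 4 times higher, as were 4 of 11 Wnt pathway genes, 6 of 8 imprinted genes of growth control and 0 of 6 retinoic acid genes. Among markers of other cell types, all 10 pluripotency genes were at least 4 times lower, as were 4 of 6 germ cell genes, and 4 of 5 blood genes were at least 2 times lower. Of 6 endothelial genes 3 were at least 2 times higher (median ratio 1.883), 2 of them 4 times (Kdr and Tek), while the endothelial cadherin Cdh5 was at 2.292 CPM. Within libraries, the summed endothelial list was higher than in the other cells at day 7 (316.1 against 221.7 CPM in WT). It was lower in each day 10 library (359.9 against 441.7 CPM in WT). Kdr had 160.4 CPM in cluster 4 and 1247 CPM in cluster 19. Of 6 keratin and trophoblast genes 4 were at least 2 times higher (median ratio 3.309), as were 2 of 3 neural crest genes (3.381) and 1 of 5 extraembryonic endoderm genes (1.815). The median ratios of S phase (0.7245), G2/M (0.746) and p53 target genes (0.6714) were below 1.

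Among the other 21 clusters, the summed profile of cluster 13 (226 cells) was most like that of cluster 4 (Pearson's r 0.9252 across 7425 genes, which are not independent), followed by cluster 14 (0.9119) and cluster 15 (0.8949). Hand2, which patterns the heart and limb, and Postn were at like levels in clusters 4 and 13, with 267.2 and 341.7 CPM for Hand2 and 251.7 and 288.3 CPM for Postn. The clusters parted at Tdo2 (89.39 against 1.319 CPM), at cardiac actin Actc1 (313.5 against 8.576 CPM), at Foxf1, a forkhead factor of splanchnic mesoderm (102.2 against 21.77 CPM), and at the simple epithelial keratin Krt8 (496.4 against 114.8 CPM). The paper describes cluster 13 as mainly Eed null, whereas cluster 4 held 3 Eed null cells. Cell type and genotype therefore cannot be told apart in these differences.

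At the finest deposited resolution of 8, cluster 4 fell into finer clusters 14 (128 cells), 16 (124 cells) and 33 (71 cells), with 1 cell elsewhere. Finer cluster 14 was led by Cyp26a1, which degrades retinoic acid (136.9 CPM), and by Eomes, a T-box factor of the primitive streak (66.1 CPM), and had most Tbx3 (221.9 CPM). Cyp26a1 and Eomes were each above the rest of cluster 4 in 4 of 5 libraries, and Tbx3 in all 5. Of the 128 cells of finer cluster 14, 64 were Mtf2 null cells of day 7, which weigh on these sums. Finer cluster 16 was led by matrix and mesothelial genes, among them Postn (649.3 CPM), Col1a2 (1036 CPM), Col3a1 (793.8 CPM) and the uroplakin gene Upk3b (78.4 CPM). Finer cluster 33 was led by sarcomere genes, with Actc1 at 1200 CPM, titin (Ttn) at 865.3 CPM, and the atrial light chain gene Myl7 and cardiac troponin T (Tnnt2) both at 212.9 CPM.

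**Figure D2:**
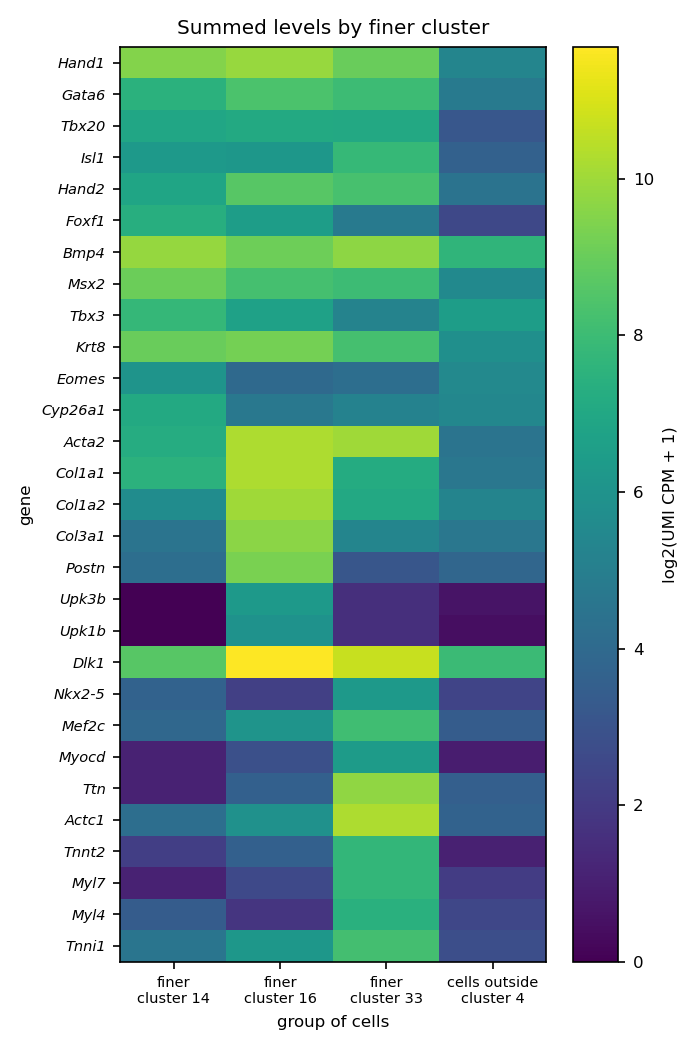
Levels as log2(UMI CPM + 1) (colour) of marker, lateral plate, matrix and contractile genes (rows) summed over the cells of finer clusters 14, 16 and 33 and over all cells outside cluster 4 (columns). Hand1, Gata6 and Tbx20 are high in all 3 finer clusters, Postn and the collagen genes are highest in 16, and Ttn, Actc1, Tnnt2 and Myl7 are highest in 33.

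The libraries drew on the finer clusters in different proportions. At day 7, 21 of 32 WT cells (65.62%) and 64 of 79 Mtf2 null cells (81.01%) lay in finer cluster 14. At day 10, 71 of 90 WT cells lay in finer cluster 16 (78.89%, 95% exact interval 69.01 to 86.79) and 6 in finer cluster 33, whereas 44 of 80 Mtf2 null cells lay in finer cluster 33 (55%, 43.47 to 66.15) and 20 in finer cluster 16. Jarid2 null cells of day 10 were spread over all 3, with 8, 12 and 13 cells in finer clusters 14, 16 and 33. Since these clusters are built on genes that also differ between the libraries, their sizes are given as a description. Within finer cluster 33 the libraries were unequal too. Actc1 had 4039 CPM in the 6 WT cells of day 10, 1449 CPM in Mtf2 null and 431.9 CPM in Jarid2 null, and Tnnt2 had 288.5, 321.4 and 0 CPM. Hence the 13 Jarid2 null cells of finer cluster 33 carried Isl1 (298.2 CPM) and some Actc1, yet no UMI of Tnnt2 and little Ttn (20.57 CPM).

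**Figure D3:**
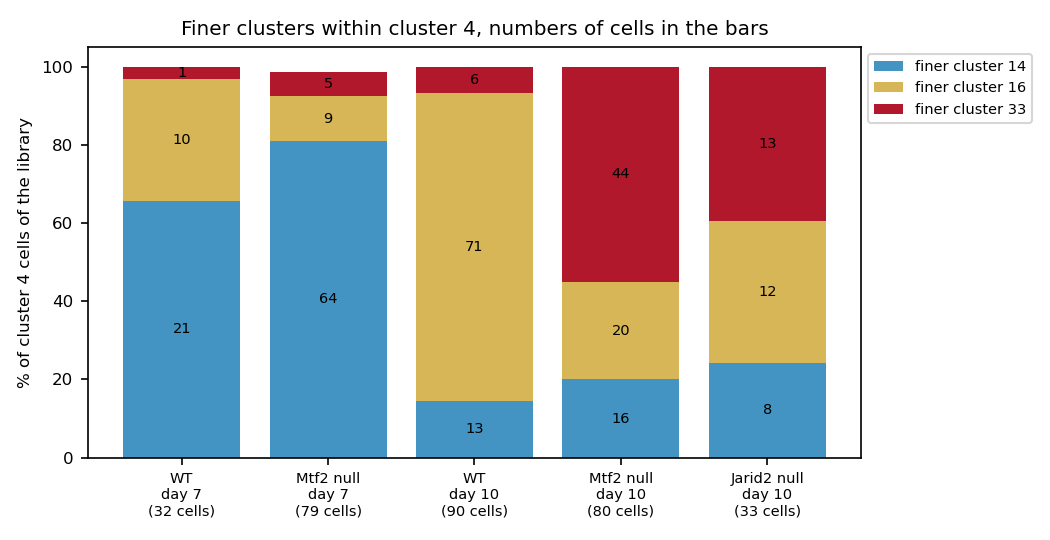
Share of the cluster 4 cells of each library (y axis, %) that lie in finer clusters 14, 16 and 33 (colours), with numbers of cells in the bars and totals under the x axis; 1 Mtf2 null day 7 cell outside these 3 is not drawn. Day 7 bars are mostly finer cluster 14, the WT day 10 bar is 78.89% finer cluster 16, and the Mtf2 null day 10 bar is 55% finer cluster 33.

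Sarcomere transcripts were held by few cells. Of the 302 cells thinned to 2500 UMIs, 205 had no UMI of 14 contractile genes and 25 had 5 or more, and the 30 highest cells held 85.78% of these UMIs. The 25 cells were 14 Mtf2 null and 6 WT cells of day 10, 2 Jarid2 null and 1 Eed null cell of day 10, and 1 WT and 1 Mtf2 null cell of day 7, and 23 of them lay in finer cluster 33. By contrast, 77 cells had 5 or more UMIs of 3 collagen genes and Postn, among them 46 of 81 WT day 10 cells (56.79%) and 17 of 75 Mtf2 null day 10 cells (22.67%). Only 1 cell of the 302 passed both limits, while 6 cells lay at 4 or 5 contractile UMIs and 26 at 4 or 5 matrix UMIs. The muscle methyltransferase gene Smyd1 (195.7 against 4.543 CPM) is one of the 14 genes that picked the 25 contractile cells, so its excess follows from that choice. Among cardiac regulators outside the 14 genes, these were higher in the 25 cells than in the other 277: Mef2c (637.7 against 51.48 CPM), Nkx2-5 (170.5 against 13.63 CPM), the serum response factor partner Myocd (214.7 against 7.571 CPM) and Isl1 (290.4 against 94.89 CPM). Hand1 was lower in them (511.4 against 776.3 CPM), as were Col1a1 (258.9 against 585.5 CPM) and the replication clamp Pcna (839.7 against 1439 CPM), while Mki67 stood at 113.6 CPM in both. Most of the 25 cells came from day 10, whereas the other 277 include most of the day 7 cells. Mef2c, Col1a1 and Pcna also differed between the days over cluster 4 as a whole, as given further on. Contractile content, day and genotype therefore cannot be told apart in these differences.

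Actc1 and Myl7 are 2 of the 3 contractile genes whose promoter held a CArG box, the site of serum response factor (CC, 6 bases of A or T, GG, searched on both strands), and they are shown to place it. RefSeq promoters (GRCm38.p6, 250 bases before to 50 after the start) were given for 18 of 19 contractile genes and for 72 of 107 cluster 4 genes. The first 250 bases, up to the start, are printed 5′ to 3′ on the strand of the gene, with the box in capitals.
Actc1, chr2:114052876-114053125, minus strand: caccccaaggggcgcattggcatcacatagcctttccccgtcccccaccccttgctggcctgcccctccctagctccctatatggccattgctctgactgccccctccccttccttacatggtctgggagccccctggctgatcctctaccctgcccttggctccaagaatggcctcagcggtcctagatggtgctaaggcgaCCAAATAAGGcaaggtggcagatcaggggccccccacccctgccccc
Myl7, chr11:5898783-5899032, minus strand: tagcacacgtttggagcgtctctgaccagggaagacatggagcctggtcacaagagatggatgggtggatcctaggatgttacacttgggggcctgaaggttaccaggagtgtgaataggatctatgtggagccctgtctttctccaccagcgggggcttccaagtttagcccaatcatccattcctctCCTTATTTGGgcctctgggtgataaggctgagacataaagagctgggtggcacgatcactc
The box begins 47 bases before the start of Actc1 and 61 bases before that of Myl7. It was found in 3 of 22 contractile promoters (13.64%, the other being Myl3), in 0 of 95 promoters of cluster 4 genes and in 482 of 32851 promoters overall (1.467%). The GATA motif AGATAA was in 4 of 22, 6 of 95 (6.316%) and 9.988% of these, respectively. A match describes letters in the window and no binding.

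Which genes differed between day 10 and day 7 inside cluster 4 was tested on UMIs summed per library, over the 5 libraries with at least 10 of its cells, by edgeR's quasi-likelihood test with day and genotype as terms. With 1 residual degree of freedom, 38 of 9310 genes were higher at day 10 (0.408%) and 6 lower (0.0644%) at an adjusted p under 0.05. Of 12 contractile genes 6 were called higher, as were 4 of 6 blood genes, given further on. Genes near 0 at day 7 can pass the filter on low counts through the day 10 libraries where they are high. The counts by list between the days are therefore a description and no test. Ttn had 0 CPM in WT day 7, 22.05 in Mtf2 null day 7, 130.9 in WT day 10, 687.7 in Mtf2 null day 10 and 8.191 in Jarid2 null day 10. It was thus high in the WT and Mtf2 null libraries of day 10 and low in the other 3, and its log2 fold change was 5.02 ± 0.39 (SE, adjusted p = 0.0003772 by edgeR), a fit that depends on the prior count where a library has 0. Actc1 had 84.6, 8.482, 288.7, 840.8 and 188.4 CPM in the same order and was higher at day 10 in both genotypes sampled at both days (log2 fold change 4.02 ± 0.71, adjusted p = 0.03794 by edgeR). Myl7 (5.04), Tnnt2 (4.16) and slow skeletal troponin I, Tnni1 (3.19), rose with them, as did Mef2c (3.07), a MADS-box factor of heart muscle. With DESeq2 the calls of Actc1, Myl7, Tnnt2 and Col3a1 were lost (adjusted p = 0.9999, 0.05596, 0.1614 and 0.9999), whereas those of Ttn, Tnni1, Mef2c, Acta2 and Col1a1 were made by both tools.

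Of the mesenchyme and matrix genes 3 of 21, and of the imprinted genes of growth control 2 of 9, were called higher. Of the 107 cluster 4 genes, 12 were called higher and 0 lower at day 10 by edgeR (unadjusted p under 0.05 in 49 and 4, DESeq2 6 and 0), and their median log2 fold change was 0.57 against 0.019 over all genes. The 107 genes were chosen on sums over these same cells, 206 of 324 from day 10, which favours genes high at day 10. Their count and median are therefore a description and no test. Col1a1 had 400.7 CPM in WT day 7, 117.1 in Mtf2 null day 7, 1507 in WT day 10, 346.6 in Mtf2 null day 10 and 282.6 in Jarid2 null day 10. It was higher at day 10 within WT and within Mtf2 null, while Mtf2 null day 10 lay below WT day 7 (log2 fold change 1.72 ± 0.21, adjusted p = 0.004509 by edgeR). The imprinted Notch-like ligand gene Dlk1 had 757, 315.5, 2881, 2229 and 3182 CPM, with no overlap between the days (log2 fold change 2.35 ± 0.21, adjusted p = 0.0009404 by edgeR). Acta2 rose by 1.58 on the log2 scale and Col3a1 by 2.29. Pcna had 2017 and 2104 CPM at day 7 against 789.1, 877.7 and 1491 CPM at day 10, again without overlap, and fell by 1.34 on the log2 scale (adjusted p = 0.004509 by edgeR). None of the 4 markers was called, with log2 fold changes of 0.41 for Hand1, 0.66 for Gata6, 0.73 for Tbx20 and 0.46 for Isl1.

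Globin transcripts were among the largest changes with the day. Hbb-bh1 had the largest summed ratio of day 10 over day 7 (68.99). The embryonic globin Hba-x was called higher at day 10 in cluster 4 (log2 fold change 4.18, adjusted p = 0.0003772 by edgeR), with 991.1 CPM in WT, 372.4 in Mtf2 null and 106.5 in Jarid2 null. In the other cells of the same libraries it had 16831, 5313 and 1496 CPM, in the same order. Among blood genes 4 of 6 were called higher, and what part the RNA of other cells had in these counts was not tested.

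**Figure D4:**
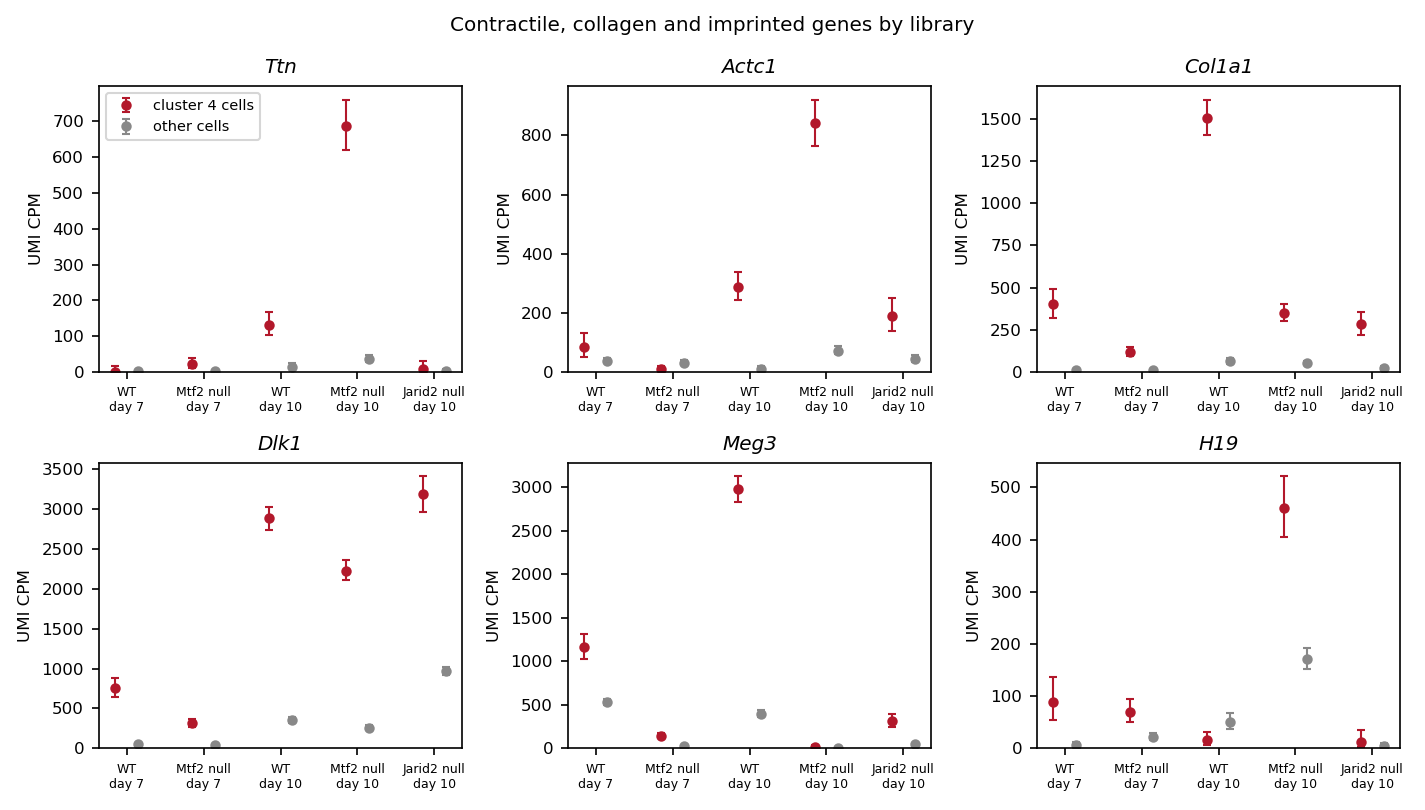
Summed UMI CPM (y axis) of Ttn, Actc1, Col1a1, Dlk1, Meg3 and H19 in cluster 4 cells (red) and in the other cells of each library (grey), by library (x axis); bars are 95% Poisson intervals and cover counting error only. Ttn and Actc1 peak in Mtf2 null day 10 (687.7 and 840.8 CPM), Col1a1 and Meg3 in WT day 10 (1507 and 2975 CPM).

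Between genotypes, in the same fit, 23 genes were higher (0.247%) and 21 lower (0.226%) in Mtf2 null than in WT cells of cluster 4. The targeted gene went with the label, with Mtf2 at 244.9 and 288.7 CPM in WT and 76.34 and 49.78 CPM in Mtf2 null (log2 fold change −2.07, adjusted p = 0.01138 by edgeR). Summed over cluster 4, Ttn (log2 fold change 2.46), Myl7 (2.83) and Tnnt2 (2.70) were higher in Mtf2 null, whereas Actc1 (0.65, adjusted p = 0.7599 by edgeR) was not called. Within finer cluster 33 at day 10 (6 WT and 44 Mtf2 null cells), Ttn had 2084 CPM in WT and 1200 in Mtf2 null. Myl7 had 352.7 and 314.8 CPM there, and Tnnt2 288.5 and 321.4 CPM. The part of the finer cluster shares in the summed differences was not tested. For Myl7 summed over cluster 4, the WT libraries had 0 and 25.02 CPM and the Mtf2 null libraries 5.089 and 177 CPM at days 7 and 10. The day 7 values are too near 0 to give a direction, and the call was lost with cells thinned to 2500 UMIs. Of the 107 cluster 4 genes 0 were called higher and 5 lower in Mtf2 null by edgeR (unadjusted p under 0.05 in 11 and 31, DESeq2 0 and 3). These were Col1a1 (−1.95), Postn (−2.74), Plac1 (−2.10) and the imprinted transcripts Rian (−4.07) and Mirg (−3.03), which are made from one locus with Meg3. The 107 genes were chosen on sums over all cluster 4 cells, WT included, so counts of them between genotypes are a description and no test. Rian, at 27.14 and 9.219 CPM in Mtf2 null, passed the limit of 50 CPM through the other libraries (236 and 411.9 CPM in WT).

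Postn had 93.51 and 762.1 CPM in WT at days 7 and 10, against 35.63 and 70.06 CPM in Mtf2 null, so that both Mtf2 null values lay below both WT values. Meg3 had 1167 and 2975 CPM in WT, 144.2 and 18.44 CPM in Mtf2 null and 311.3 CPM in Jarid2 null day 10 (log2 fold change −4.59 for Mtf2 null, adjusted p = 0.01651 by edgeR). Outside cluster 4 the difference was present too, with 373 to 529 CPM in WT libraries and 9 to 62 CPM in null libraries. Thus low Meg3 in the null libraries was not limited to cluster 4. The calls of Postn and Meg3 were lost with DESeq2 (adjusted p = 0.7422 and 0.1617), which gave no adjusted p for Myl7 and Tnnt2, while those of Ttn, Col1a1 and Rian were made by both tools. None of the 4 markers was called between Mtf2 null and WT, with adjusted p of 0.9681 for Hand1, 0.8246 for Gata6, 0.985 for Tbx20 and 0.4686 for Isl1 by edgeR.

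The Jarid2 null contrast rests on 1 library of 33 cells. In it 5 genes were higher (0.0537%) and 4 lower (0.043%), among them the Wnt antagonist gene Sfrp1 (log2 fold change −2.74) and Col1a1 (−2.34), the only 1 of the 107 cluster 4 genes called. Jarid2 itself had 57.34 CPM against 161.7 in WT day 10 and was not called (adjusted p = 0.2117 by edgeR).

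Levels of cluster 4 genes under mesoderm induction were measured in bulk, with 2 libraries per genotype and time. ESCs were driven through a mid primitive streak stage (Activin A, BMP4, CHIR99021, FGF2) to lateral mesoderm (A-83-01, BMP4) over 48 h. The duplicates are technical, so that p-values measure the spread between libraries only. Of the cluster 4 genes 86 were tested, and 26 were higher and 6 lower in WT at 48 h than undifferentiated, counting genes with an adjusted p below 0.001 and a change beyond 1 on the log2 scale, against 5.57% and 3.08% of all genes (median log2 fold change 0.58 against 0.0046). The cluster 4 genes were chosen against other cells that include all undifferentiated ones, which favours a rise. Counts of them over time, here and in endoderm, are therefore a description and no test. Hand1 had 0.1968 and 0.08697 CPM undifferentiated and 4.552 and 5.804 CPM at 48 h (log2 fold change 5.13 ± 0.55, adjusted p = 7.378e-07 by edgeR). The homeobox gene Msx2, a BMP target, had 0.6889 and 1.218 and then 29.16 and 32.89 CPM (log2 fold change 5.01 ± 0.28). Has2 (4.52), the netrin receptor gene Unc5b (3.54), Tbx20 (1.89) and Krt8 (1.70) rose with them, while vimentin (Vim) fell by 3.07 on the log2 scale. Isl1 (1.48) and Gata6 (−0.90) were not called. In WT cells directed to definitive endoderm, 16 of 86 were higher and 7 lower (5.16% and 3% of all genes), with Hand1 (−0.06) and Tbx20 (−0.09) not called. Actc1, Foxf1 and Hand2 were near 0 CPM at 48 h.

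At 48 h of mesoderm induction, Mtf2 null cells had 14 cluster 4 genes higher and 6 lower than WT (3.76% and 3.06% of all genes). Gata6 had 25.3 and 22.82 CPM in Mtf2 null against 0.4618 and 1.612 CPM in WT (log2 fold change 4.59 ± 0.31, adjusted p = 5.629e-10 by edgeR), and the PDGF receptor gene Pdgfra 46.45 and 45.88 against 1.847 and 1.209 CPM (log2 fold change 4.90 ± 0.26). Msx2 went the other way, with 13.32 and 10.32 against 29.16 and 32.89 CPM (log2 fold change −1.38 ± 0.20), and Rian (−8.31) and Mirg (−8.39) were nearly absent. Hand1 (0.75), Tbx20 (0.80) and Isl1 (−1.60) were not called. Gata6 and Pdgfra are also genes of extraembryonic endoderm, and 12 of 13 tested genes of that list were higher in Mtf2 null, with the endocytic receptor Cubn at 706.2 and 846 CPM against 17.15 and 16.69 CPM. In the undifferentiated state 10 of 13 were already higher, and of the cluster 4 genes 18 were higher and 9 lower (6.47% and 4.68% of all genes), 11 of the former and 3 of the latter being called in that direction at both times. The part of such cells in the Gata6 and Pdgfra values was not tested. In Jarid2 null cells at 48 h, 1 cluster 4 gene was higher (the imprinted gene Peg10) and 0 lower by edgeR (0.142% and 0.0272% of all genes, unadjusted p under 0.05 in 20 and 4, DESeq2 2 and 0), and Jarid2 was not low in them (389.1 and 442.9 against 410.4 and 383.5 CPM), whereas Mtf2 was low in the Mtf2 null libraries (29.89 and 33.22 against 294.4 and 203.4 CPM).

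**Figure D5:**
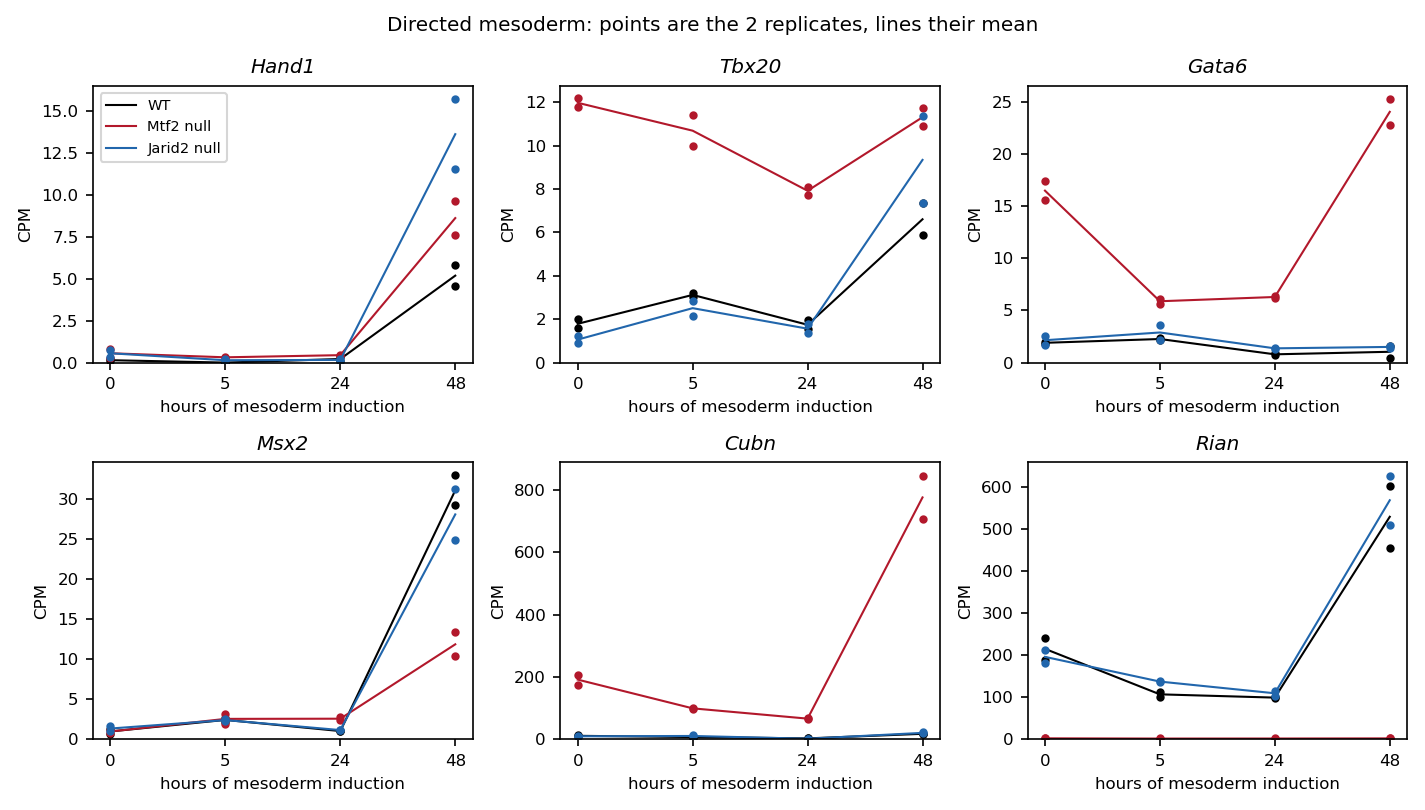
CPM (y axis) of 6 genes over hours of mesoderm induction (x axis, evenly spaced, 0 is undifferentiated) in WT (black), Mtf2 null (red) and Jarid2 null cells (blue); points are the 2 libraries and lines join their means. Hand1 and Msx2 appear at 48 h, Gata6 and Cubn are high in Mtf2 null cells from the start, and Rian is near 0 in Mtf2 null cells throughout.

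In bulk EBs, each WT line gives 1 sample a day, and fewer cells of a type and less RNA per cell cannot be told apart. Normalised counts of Hand1 went from 1461 to 2273 between days 4 and 7 in J1, from 13.96 to 709.1 in JM8 and from 5.013 to 140.9 in the Pcl1-3 WT line. Acta2 went from 95.99 to 3040, from 12.68 to 651.7 and from 17.81 to 70.32. The day 7 value was the higher one in all 3 lines, which differed by more than 10 times at day 7, and neither gene was called (limma, log2 of the value + 1, adjusted p = 0.147 for Hand1 and 0.09365 for Acta2). Of 102 tested cluster 4 genes 2 were called higher, the collagen gene Col5a1 (log2 fold change 2.44) and the cell cycle inhibitor gene Cdkn1c (2.57), and 0 lower (0.0456% of all genes higher and 0.0076% lower, unadjusted p under 0.05 in 74 and 0, edgeR on recovered reads 16 and 0). Their median log2 fold change was 1.73 against 0.015 over all 13152 genes tested, and 74 of the 102 were higher at day 7 than at day 4 in all 3 lines, as were 24.49% of all genes tested. The cluster 4 genes were chosen against other cells that include every single cell of day 4, which favours genes higher at day 7. These counts and the median are therefore a description and no test.

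In the EB samples labelled null, the targeted transcripts of Mtf2, Jarid2 and Eed were not low (Eed, 563.3 in the labelled null against 402.6 in J1 at day 4). RNA level alone does not show whether an allele is null. The paper states that the Mtf2 null line was genotyped by PCR and the Jarid2 and Eed null lines were checked by Western blot. The samples are named as labelled. Over the 4 days, 19 of 95 cluster 4 genes were higher in the samples labelled Mtf2 null than in Pcl1-3 WT (5.18% of all genes higher, 3.55% lower), 23 of 102 in those labelled Jarid2 null than in JM8 (7.9% and 8.87%), and 1 was higher and 4 lower in those labelled Eed null than in J1 (5.33% and 4.5%). Gata6 was among the genes higher with the Mtf2 null (log2 fold change 2.89) and the Jarid2 null label (3.21), together with the primitive endoderm gene Dab2 (3.01 and 3.17). Acta2 was among those lower with the Eed null label (−1.49, adjusted p = 0.03819 by limma), a call that was lost with a pseudocount of 8, with no filter on low values, with no block and without any 1 of the 4 days.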

How the data were processed

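The authors deposited whole-number UMI counts per gene and cell (Bowtie2 alignment to GRCm38, HTSeq counting, cell filtering and clustering by the authors), Salmon estimated counts per gene for the directed experiments, and DESeq2 size-factor-normalised counts for the bulk EBs, a normalised signal per gene made by the authors. No column of per-sample values was left out. The members and gene lists were chosen with earlier results of these data known.

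Cluster 4 cells were taken from the deposited cell table, UMIs were summed per library and scaled to CPM, and levels were given with exact Poisson intervals. Genes were named where they belonged to a gene list, were among the 30 cluster 4 genes of highest ratio, or were among the 10 genes of largest change in each direction of a comparison, as well as the targeted genes. Genes set beside the limits or on account of the rest of a library (Hprt, Rplp1, Hba-x) were chosen after their values were seen. Summed UMIs of the 5 libraries with at least 10 cluster 4 cells, and rounded estimated counts of 24 libraries for each directed experiment, entered edgeR 4.0.16 (quasi-likelihood test after TMM scaling and filterByExpr), and EB values entered limma 3.58.1 (log2 of the value + 1, mean of at least 10, line or day as a block), in R 4.3.3. DESeq2 1.42.0 was an alternative test. Whole reads were recovered from 45 of 46 EB columns (100% of their values within 0.02 reads) for an edgeR fit, which called 109 genes between days in the WT lines and 1045, 1976 and 1005 for the Mtf2, Jarid2 and Eed null labels. Depth was 9110000 to 16900000 reads per mesoderm library, 9890000 to 16370000 per endoderm library and 4070000 to 30460000 per EB sample, rounded. In simulated data, the genes changed 4 times that were called in the right direction were, within cluster 4, 65 of 94 between days, 69 of 94 for Mtf2 null and 43 of 96 for Jarid2 null. They were 69 of 96 in mesoderm (Mtf2 null against WT at 48 h), 54 of 95 in endoderm, 37 of 100 between days in the EB WT lines, and 56, 77 and 62 of 100 for the Mtf2, Jarid2 and Eed null labels. At most 8 unchanged genes were called in any of these. Doublets were not called, and cells above 3 times the median UMIs of their library were left out in an alternative. Replicate numbers of the directed libraries do not pair them (correlations of deviations from −0.17 to 0.12). Promoters were matched by symbol.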

Additional observations from a re-analysis of the deposited data

Results flagged for a closer look

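Of the genes named in cluster 4, 6 moved opposite ways between days 7 and 10 in WT and in Mtf2 null cells, with Poisson intervals that did not overlap within either genotype. H19 went down in WT (day 10 over day 7, a ratio of 0.1729) and up in Mtf2 null (6.627), and the retinoic acid binding protein gene Crabp2 likewise (0.4447 and 2.042). Meg3 went up in WT (2.549) and down in Mtf2 null (0.1279), as did Cdh11 (1.39 and 0.6785), Ppic (1.503 and 0.6737) and Vim (1.575 and 0.8733). The difference between the genotypes was not tested, since each ratio compares 2 libraries, and the intervals cover counting error only.

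Between the directed experiments, 14 of 83 cluster 4 genes tested in both arms (16.87%) had both WT libraries at 48 h on one side of the undifferentiated ones in mesoderm and on the opposite side in endoderm, against 3.874% of all 18017 genes tested in both. Of the 14, 7 were called in at least 1 arm by edgeR. Msx2 was called higher in mesoderm (log2 fold change 5.01) and not called in endoderm (−2.25, adjusted p = 0.01001 by edgeR). Irx3 was called higher in mesoderm (3.53; endoderm −0.51, not called) and Hs6st2 higher in endoderm (2.81; mesoderm −0.64, not called). The difference between the arms was not tested.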

How the results depend on the processing

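Single-cell fits rest on 5 libraries and 1 residual degree of freedom, directed fits on technical duplicates and EB fits on 1 sample per line and day. The share of cells with a marker UMI fell with depth (thinned to 2500 UMIs, 69.54% for Hand1, 42.38% for Gata6, 22.85% for Tbx20 and 17.88% for Isl1), and the mean over cells gave 148.5 CPM for Tbx20. A ratio limit of 8 left 48 cluster 4 genes and a level limit of 100 CPM left 66. Within cluster 4, the genes called between days numbered 80 with RLE scaling (56 higher and 24 lower, against 38 and 6), 352 with no filter on low counts, 19 with DESeq2 and 81 without the cells of highest UMI count. For Mtf2 null against WT they numbered 183 with no filter and 18 with DESeq2, and for Jarid2 null against WT 24 with RLE scaling, 207 with no filter and 18 without the cells of highest UMI count. Without the Jarid2 null day 10 library, 60 genes were called between days and 48 between Mtf2 null and WT, and leaving out any other library left no residual degree of freedom. Thinning the cells to 2500 UMIs lost the calls of Tnnt2 between days and of Tnnt2 and Myl7 between Mtf2 null and WT. The cause of these shifts was not tested.

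Among cluster 4 genes in the directed experiments, an adjusted p under 0.05 with no fold limit gave 44 calls for Mtf2 null at 48 h, 11 for Jarid2 null at 48 h, 46 for Mtf2 null undifferentiated, 50 for WT mesoderm over time and 55 for WT endoderm over time. Taking only cluster 4 genes at 8 times gave 6, 0, 7, 7 and 3, in the same order, of 30 genes tested. For Jarid2 null at 48 h, DESeq2 gave 2 calls and no filter 3. Leaving out 1 replicate gave 16 to 20 calls for Mtf2 null at 48 h, 0 to 2 for Jarid2 null, 25 to 29 for Mtf2 null undifferentiated, 25 to 29 for WT mesoderm and 17 to 22 for WT endoderm. With the replicate number as a block, the calls were 19 for Mtf2 null at 48 h, 1 for Jarid2 null, 27 for Mtf2 null undifferentiated, 31 for WT mesoderm and 23 for WT endoderm. The replicate block changed no call of a summary count by more than 1.5 times, and a crossed pairing, chosen after seeing the data, gave 29 and 32 for Mtf2 null undifferentiated and for WT mesoderm.

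In EBs, calls for the WT lines between days numbered 11 with no filter on low values, 0 with no block, 16 with edgeR on recovered reads, 0 among genes at 8 times and 0 to 48 leaving out 1 line (48 without J1, 29 without Pcl1-3 WT, 0 without JM8). For the Mtf2 null label they numbered 3 with no block, 5 among genes at 8 times and 8 to 31 leaving out 1 day (31 without day 0, 8 without day 4). For the Jarid2 null label they numbered 0 with no block, 10 among genes at 8 times and 9 to 22 leaving out 1 day (9 without day 4, 10 without day 7). For the Eed null label they numbered 2 with no filter, 0 with no block, 3 with edgeR on recovered reads, 2 among genes at 8 times and 0 leaving out any 1 day. Of the alternatives for single named genes, 1188 left the call as it was, 50 gave a call that was not made before and 43 lost one, and none turned a called direction.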

Other observations

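The 3 Eed null cells of day 10 in cluster 4 stood beside Eed null cells of other clusters in the same library that also carried the marker genes, with 394.8 CPM of Hand1 and 323.3 CPM of Gata6 in the other cells of that library, against 60 to 76 CPM of Hand1 in the other cells of the WT, Mtf2 null and Jarid2 null libraries that hold 10 or more cluster 4 cells.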
